A study of Mus musculus with 8 samples.

Results

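The comparison described here is that of regenerating livers with and without Cre: 4 of the 8 libraries of the series, 2 a side, chosen by genotype and operation alone. All mice carried floxed alleles of b-PDGFR (b-PDGFR fl/fl), the receptor, encoded by Pdgfrb, that binds platelet-derived growth factor (PDGF). The Cre-negative mice were GFAP Cre -/- and the Cre-positive mice GFAP Cre +/-, so the control livers carried the floxed alleles too. Cre was driven by the GFAP promoter, and the design text gives the result as a deletion restricted to hepatic stellate cells. The sources used here do not give the floxed exons. The mice were of the strain 129S4/SvJae/FVB and 3 months old, and these 4 livers were taken 72 h after partial hepatectomy. The other 4 libraries, from sham-operated mice of both genotypes, serve as the reference level and enter the fit that estimates the spread. The labels call the libraries duplicates and do not say that each came from its own animal, so that p-values measure only the spread between these samples.

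Hepatic stellate cells are the pericytes of the liver sinusoid. They store vitamin A at rest and turn into matrix-producing myofibroblasts after injury, and b-PDGFR is the receptor through which platelet-derived growth factor drives their division and migration. After partial hepatectomy the remaining hepatocytes enter the cell cycle, and stellate, endothelial and Kupffer cells supply growth factors, cytokines and matrix to the growing tissue. RNA was taken from whole liver, which is mostly hepatocytes, and in such a bulk sample fewer cells of a type and less RNA per cell cannot be told apart.

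Values are a normalized signal per gene as the authors deposited it, with no unit given. They are listed with replicate 1 before replicate 2 and the Cre-negative pair before the Cre-positive pair. A log2 fold change is the Cre-positive minus the Cre-negative group mean on the log2(signal + 1) scale, with its standard error (SE, n = 2 libraries per group), and for genes of low signal it is smaller than the true change. Some hepatocyte genes were abundant in all 4 libraries, as the liver label has it, and others varied widely between them. Apoa1, an apolipoprotein made by hepatocytes, was at 38355 and 69427 without Cre against 78880 and 82420 with Cre, and Ttr, which carries thyroid hormone in plasma, was at 33956, 47592, 55355 and 47592. Apob, another apolipoprotein, was at 8308 and 20334 without Cre against 47080 and 2241 with Cre, so its Cre-positive replicates lay far apart. An exact 0 cannot be read as absence: Alb, the albumin gene, was listed at 227226 in Cre-negative replicate 1 and at 0 in the other 3 hepatectomy libraries, and Trf, transferrin, at 176114, 461037, 0 and 699462. Serpina1a, a further hepatocyte gene, was at 25710, 45190, 0 and 105344.

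The level of the floxed gene did not separate the genotypes. Pdgfrb was at 123 and 70.5 without Cre against 63.1 and 99.9 with Cre, and at 46.0 to 63.3 in sham livers. The groups overlapped, with a log2 fold change of -0.23 ± 0.39 (95% interval -1.13 to 0.68, limma adjusted p = 0.769). Gfap, the gene whose promoter drives Cre, was at 7.35 and 4.66 against 0.189 and 3.04 (log2 fold change -1.65 ± 0.61, limma adjusted p = 0.235). It was lower in both Cre-positive libraries, at a level of a few units. In sham livers Gfap was likewise lower, at 3.57 and 2.92 without Cre against 0.749 and 1.04 with Cre (log2 fold change -1.16).

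The 4 libraries differed among themselves about as much within a genotype as between genotypes. The median absolute log2 difference over the genes tested was 0.45 between the Cre-negative replicates, 0.68 between the Cre-positive replicates and 0.49 to 0.74 between libraries of different genotype, against 0.20 to 0.21 between sham replicates. Cre-positive replicate 2 stood apart by base composition: genes under 40% GC (928 genes) had a median log2 difference from the sham mean of -1.49 there and of -0.03 to -0.06 in the other 3. Genes of 40% to under 45% GC (3060 genes) were at -0.83 there and at -0.01 to 0.02 in the other 3. In these classes 1.51% and 6.50% of genes were higher in both Cre-positive libraries, and 34.7% and 31.1% lower. A low value of Cre-positive replicate 2 for a gene under 45% GC lies in that direction. In Cre-positive replicate 2 the top 10 genes held 30.0% of the signal, against 14.3% to 18.4% in the other libraries. Genes of 55% GC or more (3498 genes) were at 0.61, 0.40 and 0.66 in Cre-negative replicates 1 and 2 and Cre-positive replicate 2, and at -0.11 in Cre-positive replicate 1. Level mattered as well: the 912 genes under a mean sham signal of 1 were at 1.88 and 0.98 without Cre against -0.05 and 0.86 with Cre. Among those genes 2.19% were higher in both Cre-positive libraries and 39.7% lower. Among the 1222 genes at 1000 or more 29.9% were higher and 14.0% lower. These abundant genes had medians of -0.52 and -0.25 without Cre against -0.008 and -0.16 with Cre. A Cre-positive value above both Cre-negative ones can thus lie at the sham level. A lower value of a weakly expressed gene, or a higher one of an abundant gene, therefore lies in the direction of a trend of all genes between these libraries, whose part in the results below was not tested.

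**Figure D1:**
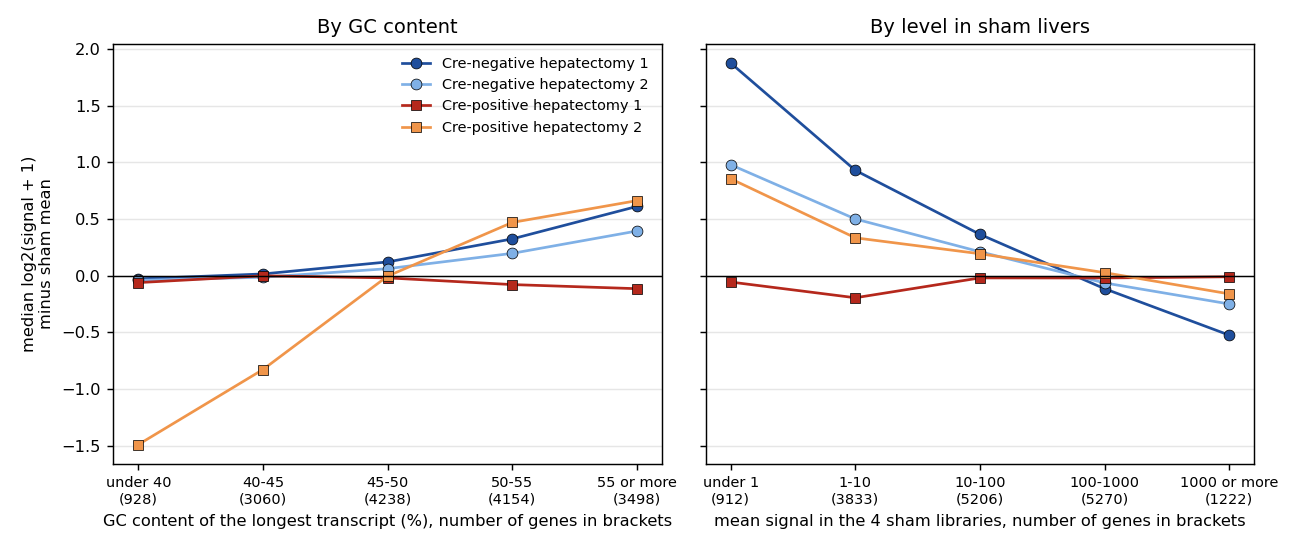
Median log2(signal + 1) of each hepatectomy library minus the mean of the 4 sham libraries, by class of gene GC content (percent) and by class of mean sham signal, one line per library. Cre-positive replicate 2 drops to -1.49 for genes under 40% GC, and the weakest genes lie at 1.88 and 0.98 in the Cre-negative libraries against -0.05 in Cre-positive replicate 1.

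Of the 16443 genes tested, 1 was higher (0.00608%) and 2 were lower (0.0122%) in Cre-positive than in Cre-negative regenerating livers at a limma adjusted p under 0.05: Cbx8 rose, and Igfbp1 and SCARNA4 fell. At an unadjusted p under 0.05, 960 genes (5.84%) were higher and 2049 (12.5%) lower. That split depended on the scaling: it was 1592 against 1521 after median-of-ratios scaling, 1573 against 1135 after quantile normalization and 1968 against 1613 with each library centred within GC classes. In the sham livers 88 genes (0.535%) were higher and 58 (0.353%) lower by the same unadjusted test, and 1 (0.00608%), AL845466.1, passed the adjusted one. The genotype difference itself differed between hepatectomy and sham livers at an unadjusted p under 0.05 in 458 genes (2.79%) with a higher and 872 (5.3%) with a lower value after hepatectomy, and at the adjusted threshold in 2 (0.0122%), SCARNA4 and AL845466.1. Both Cre-positive values lay above both Cre-negative values in 2329 genes (14.2%) and below them in 4319 (26.3%), counts that serve below as the background for every gene group. The median log2 fold change over all genes tested was -0.23, and -0.08 after median-of-ratios scaling. With a median SE of 0.415, the 95% interval of a typical gene reached 0.975 to either side.

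Igfbp1, which encodes a secreted binding protein of insulin-like growth factors that hepatocytes make in fasting, stress and early regeneration, had the smallest adjusted p of all genes. It was at 7883 and 8615 without Cre against 436 and 480 with Cre, with sham livers at 6883 and 5838 (Cre-negative) and 5192 and 3788 (Cre-positive). The replicates of each genotype lay close together and the Cre-positive pair lay below all 6 other libraries. The mean was 18 times lower (log2 fold change -4.17 ± 0.24, 95% interval -4.74 to -3.59, limma adjusted p = 0.00668). In sham livers the same difference was -0.52, and the difference between them, -3.65, had an adjusted p of 0.0631. The call was lost when only the hepatectomy libraries were fitted (0.290) or when Cre-negative sham replicate 1 (0.0633), Cre-negative sham replicate 2 (0.0639) or Cre-negative hepatectomy replicate 1 (0.0972) was left out, with the log2 fold change between -4.44 and -4.0 over all alternatives.

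Igfbp1 is a textbook target of FOXO transcription factors, which insulin signalling holds out of the nucleus, so the promoter stretch with its matches to a FOXO-type motif is shown. The motif, CAAAACA or CAAAATA on either strand, was chosen with this promoter in view. The stretch (RefSeq, GRCm38.p6, chr11:7197634-7197753, + strand) ends upstream of the gene start and holds 2 matches, in capitals.
Igfbp1: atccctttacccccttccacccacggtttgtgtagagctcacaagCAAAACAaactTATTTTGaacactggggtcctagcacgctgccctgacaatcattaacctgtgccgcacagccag
Such a match stood in the 250 bases before the start of 9.21% of 27025 promoters (6.18% of the 10387 of genes tested), and in 1 of the 10 genes of insulin-like growth factor binding with a promoter in the table, Igfbp1 itself.

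Cbx8, a chromodomain subunit of the Polycomb repressive complex, was at 15.4 and 13.2 without Cre against 250 and 285 with Cre. All 4 sham libraries were between 9.01 and 13.4, so that both Cre-positive hepatectomy libraries lay far above the other 6. The ratio of means was 18.7 and the log2 fold change 4.14 ± 0.33 (limma adjusted p = 0.0177). Nearly the whole difference sat in 1 isoform: Cbx8-201 was at 234.5 and 257.1 in the Cre-positive hepatectomy libraries and listed at 0 in the other 6. A listed 0 can be a failed estimate, and the ratio of 18.7 and the call rest on these 0s. The rest of the gene was at 15.4 and 13.2 against 15.2 and 27.8. Of 96792 isoforms, Cbx8-201 was the only one at 100 or more in both of these libraries and at 0 in the other 6, a search made after its values were seen. The call was lost without any 1 of the sham libraries, without Cre-negative hepatectomy replicate 1 (adjusted p = 0.241) and with only the hepatectomy libraries in the fit (0.419).

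**Figure D2:**
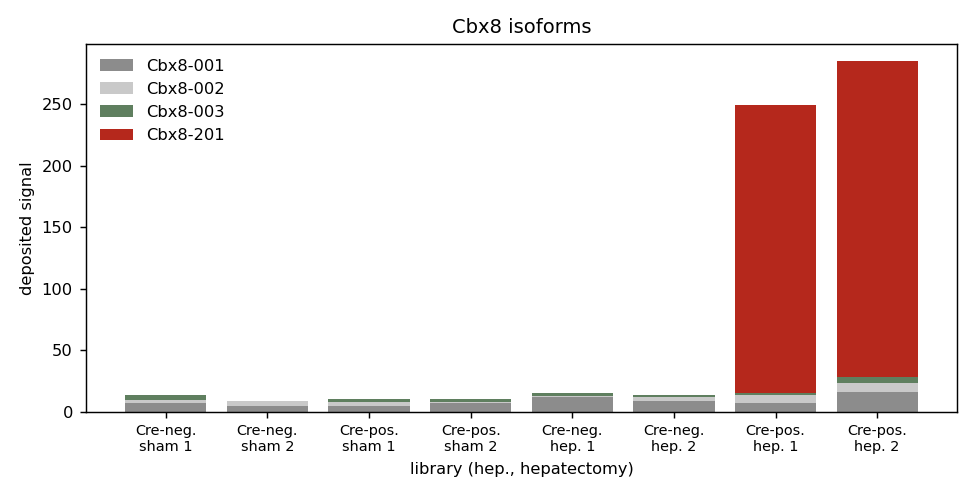
Stacked bars of the signal of each Cbx8 isoform in the 8 libraries, on a linear axis from 0. The bar of Cbx8-201 appears in the Cre-positive hepatectomy libraries, at 234.5 and 257.1, and the remaining isoforms sum to between 9.01 and 27.8 in the 8 libraries.

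SCARNA4, a small Cajal body RNA of the kind that guides modification of spliceosomal RNA, was at 47.4 and 52.2 in Cre-negative and listed at 0 in both Cre-positive regenerating livers (limma adjusted p = 0.00686). It was at 18.6 and 19 in Cre-negative sham and 57.2 and 34.3 in Cre-positive sham livers. Since a listed 0 can be a failed estimate, no fold is given, and the test itself rests on these 0s. The call was lost at a pseudocount of 10 (0.0800), without Cre-negative hepatectomy replicate 1 (0.147), without either Cre-negative sham library and with only the hepatectomy libraries in the fit.

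The next genes by unadjusted p did not pass the threshold. On the high side these were Mir686, Kif13b, Gm20431, Sdc3, Lcn14, Nos1ap, Gm6736, Tnfrsf14 and Igtp, each at a limma adjusted p of 0.0988. Igtp, an interferon-gamma-induced GTPase that acts against intracellular pathogens, was at 91.2 and 121 without Cre against 3182 and 730 with Cre, with sham livers at 130 to 205. Both Cre-positive values were above all others, but they differed from each other by more than the Cre-negative pair did (ratio of means 18.4, log2 fold change 3.84 ± 0.64). Kif13b, a kinesin motor, was at 155 and 188 against 519 and 499 (1.57 ± 0.23), with sham livers at 391 to 484. Sdc3, a heparan sulfate proteoglycan of the cell surface, was at 85.8 and 82.1 against 260 and 243 (1.57 ± 0.25), with sham livers at 93.4 to 122. For these pairs the replicates lay close together and the groups were well apart. Nos1ap, an adaptor of neuronal nitric oxide synthase, was at 17.4 and 34.9 against 114 and 141, and Tnfrsf14, a receptor of the tumour necrosis factor family, at 40.7 and 40.9 against 159 and 116. Lcn14, a lipocalin, and the gene models Gm6736 and Gm20431 had lower levels: 3.62 and 3.21 against 22.6 and 25.4, 10.7 and 10.2 against 52.6 and 52.5, and 0.245 and 0.346 against 11.5 and 45.7. Mir686, a microRNA locus, was at 999 and 710 against 3219 and 3741, with sham livers at 2427 to 3741. Its value in Cre-positive hepatectomy replicate 2 recurred exactly in Cre-positive sham replicate 1.

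On the low side stood Zan, Sftpa1, Lgals4, Ppp1r3g, RP23-268N22.1.1, Ip6k2, Lepr and Pdk4, at an adjusted p of 0.0888. Pdk4, the kinase that shuts off pyruvate dehydrogenase when fat is burned, was at 607 and 566 without Cre against 15.3 and 20.2 with Cre, with sham livers at 41.4 to 180. The Cre-negative pair was high above sham and the Cre-positive pair below it (33.0 times lower, log2 fold change -4.98 ± 0.63). Lepr, the leptin receptor, was at 147 and 56.3 against 4.70 and 5.53 (19.8 times lower, -3.91 ± 0.49). Most of that signal was in the isoform Lepr-004, at 129.2 and 47.6 against 4.33 and 4.08. Ppp1r3g, which targets protein phosphatase 1 to glycogen, was at 136 and 50.2 against 0.251 and 1.55 (-5.55 ± 0.68). Lgals4, a galectin of epithelia, was at 563 and 414 against 70.1 and 82.0 (-2.66), and Ip6k2, an inositol hexakisphosphate kinase, at 917 and 673 against 204 and 184 (-2.01). In all 5 both Cre-positive values were below both Cre-negative values with a wide gap. Sftpa1, a surfactant protein, was at 157 and 79.4 against 8.76 and 8.59, and Zan, a sperm protein, at 26.5 and 16.3 against 0.183 and 0.517, with all 4 sham libraries listed at 0.

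**Figure D3:**
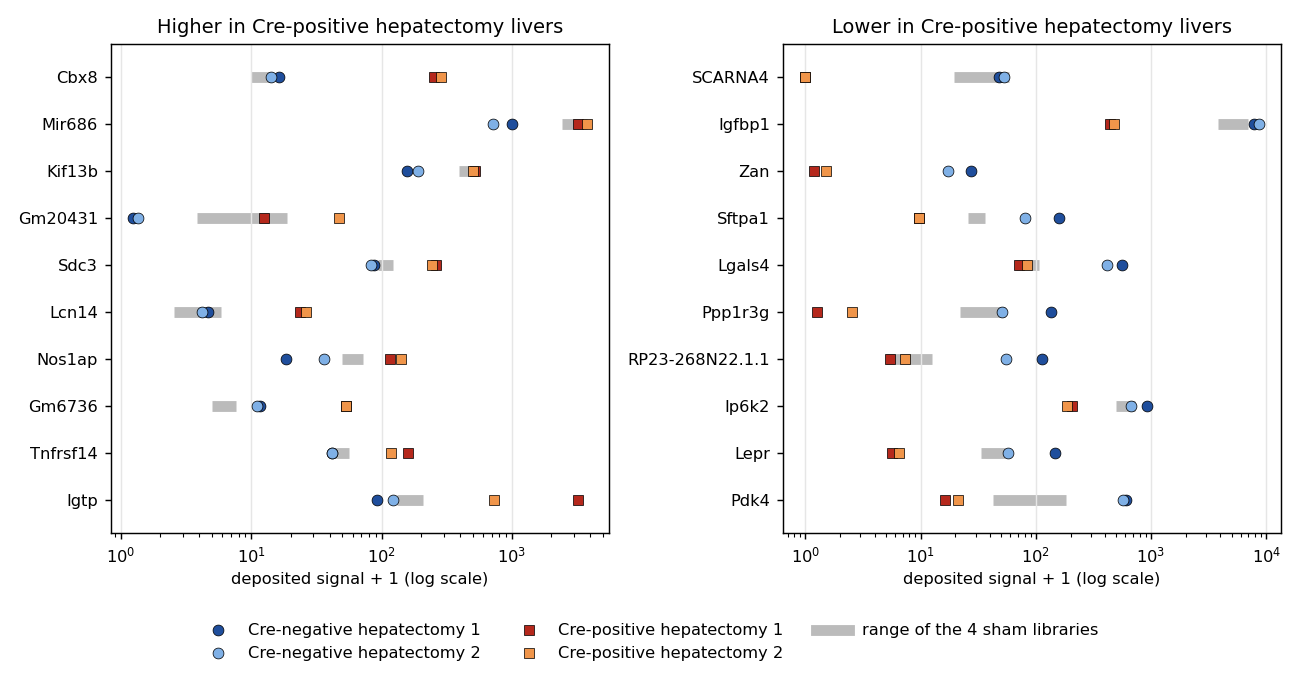
Signal + 1 on a log axis of the genes named by the rule in the 4 hepatectomy libraries, one point per library, with a grey bar for the range of the 4 sham libraries. Igfbp1 and Pdk4 lie low in both Cre-positive libraries and Cbx8 and Igtp high. Pdgfrb and Gfap are not drawn.

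The plot of list medians by library gives the gene groups that the next paragraphs describe. Each group is given as the number of tested members that lay higher or lower in both Cre-positive libraries, to be read against the 14.2% and 26.3% of all genes, and by its median log2 fold change, to be read against -0.23. The groups and their members were chosen with earlier results of these data known. The shares therefore describe the groups and are no independent test of them. No member other than Igfbp1 passed the adjusted test in any of these groups.

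**Figure D4:**
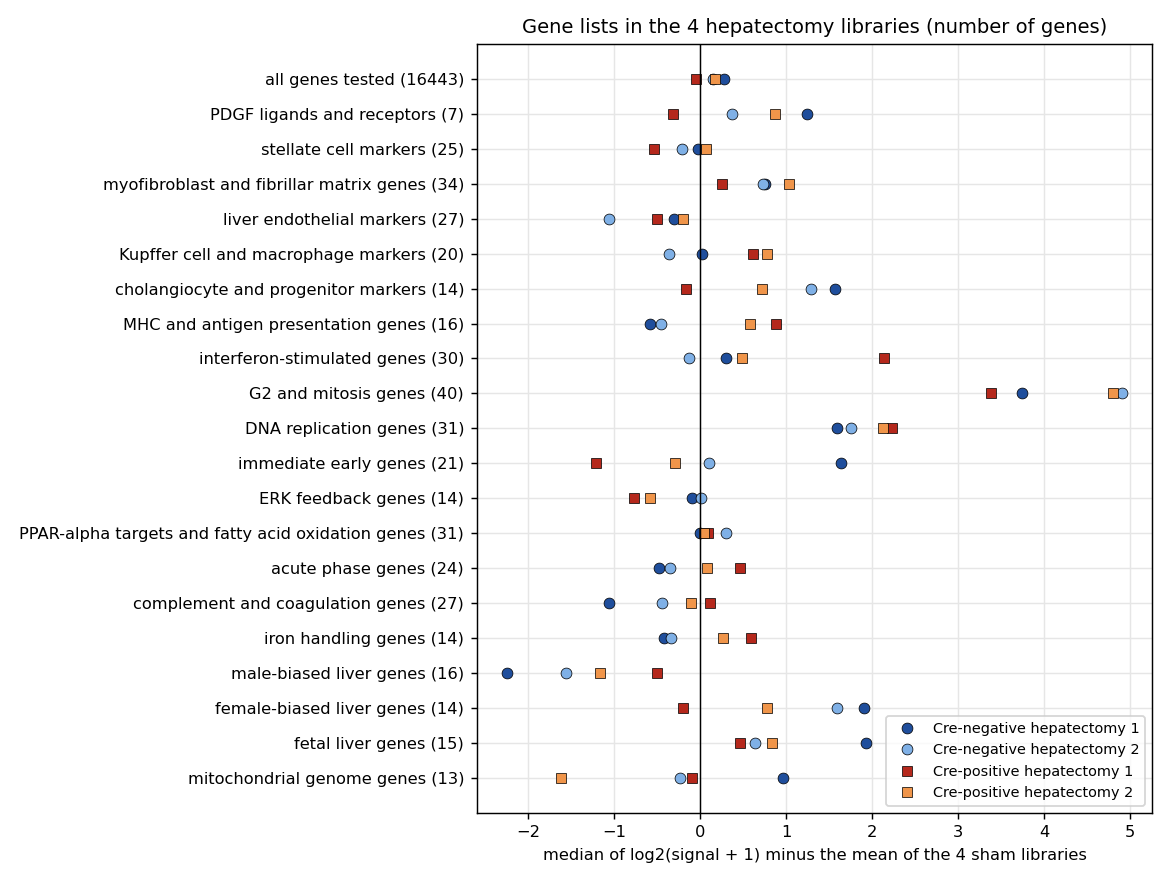
Median over the members of 20 gene lists, and over all genes tested, of log2(signal + 1) minus the mean of the 4 sham libraries, one point per hepatectomy library. The interferon list stands at 2.14 in Cre-positive replicate 1 and 0.48 in replicate 2 against 0.30 and -0.13 in the Cre-negative libraries, and the 2 Cre-positive points of the antigen presentation list lie above both Cre-negative points.

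Ligands and receptors of the PDGF family showed no member higher and 4 of 7 lower in both Cre-positive livers (median -0.44). Pdgfa, a ligand, was at 116 and 67.8 against 37.4 and 47.5 (log2 fold change -1.06 ± 0.37). Pdgfra, the alpha receptor, was at 46.5 and 43.1 against 42.3 and 37.0 (-0.17 ± 0.30), lower in both Cre-positive libraries by less than its error. Pdgfb and Pdgfc, ligands, overlapped between genotypes at 7.15 and 1.77 against 1.18 and 4.63 and at 12 and 11.5 against 9.96 and 19.2. Pdgfd, the ligand most specific for the beta receptor, was at 10.7 and 4.44 against 1.16 and a listed 0. Without Cre-negative replicate 1 the list median was -0.12, above that of all genes (-0.18 in the same fit), without its replicate 2 it was -1.22, and without Cre-positive replicates 1 and 2 it was -0.27 and -1.13.

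Markers of stellate cells, the cells in which Cre is meant to act, lay on both sides: 3 of 25 were higher and 3 lower (median -0.35, and 0.05 without Cre-positive replicate 1). Des (desmin) was at 45.2 and 42.0 against 14.8 and 45, Lrat, which esterifies retinol for storage, at 6.88 and 8.31 against 8.02 and 3.22, and Dcn (decorin) at 1159 and 993 against 1216 and 417. Each of these overlapped between the genotypes, with 1 low Cre-positive library. Dcn has a GC content of 37.4%, in a class where Cre-positive replicate 2 was low. Ntm, a neural adhesion molecule, was lower in both (20.8 and 24.1 against 7.08 and 4.18, -1.85 ± 0.41). Cxcl12, the chemokine of perivascular stroma, was higher in both (373 and 576 against 805 and 965, 0.93 ± 0.29).

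Among genes of myofibroblasts and fibrillar matrix, 8 of 34 were higher and 7 lower (median -0.18). The side of that median rested on 1 library: it was 0.37 without Cre-positive replicate 1 and -0.39 without its replicate 2. Col3a1, a fibrillar collagen, was at 727 and 1144 without Cre against 1856 and 2007 with Cre (1.08 ± 0.31). Fn1, fibronectin, was at 11107 and 13112 against 25314 and 20276 (0.91 ± 0.26). Both were higher in both Cre-positive livers, with sham livers at 529 to 796 for Col3a1 and 17764 to 22867 for Fn1. Postn (periostin) was lower in both, at 155 and 126 against 81.4 and 18.9, with a GC content of 36.3%, in a class where Cre-positive replicate 2 was low. Col1a1 at 317 and 358 against 482 and 1051 was higher in both too, whereas Acta2, the smooth muscle actin of activated stellate cells, overlapped at 55.1 and 84.0 against 19.6 and 129. In basement membrane genes 6 of 14 were higher and 2 lower (median 0.15, and -0.01 to 0.35 when a hepatectomy library was left out), with Lamc1, a laminin chain, at 86.1 and 122 against 169 and 191 and Col4a1 at 617 and 435 against 807 and 924. In matrix metalloproteinases and their inhibitors 2 of 16 were higher and 4 lower (median -0.37). Mmp19 was at 209 and 314 against 442 and 564.

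Markers of liver macrophages had higher values in Cre-positive regenerating livers: 13 of 20 were higher in both libraries and 1 lower (median 0.75, and 0.54 to 1.05 when a hepatectomy library was left out). Emr1, which encodes the F4/80 antigen, was at 111 and 125 against 328 and 348 (1.51 ± 0.29, limma adjusted p = 0.115). Cd5l, a scavenger protein secreted by macrophages, was at 426 and 405 against 1420 and 1166 (1.63 ± 0.33), and C1qb, of the first complement component, at 229 and 202 against 488 and 550 (1.26 ± 0.26). Clec4f, a lectin specific to Kupffer cells, was at 623 and 481 against 886 and 965. In each the pairs were well apart. The summed signal of the list was 4329 and 3402 without Cre against 8905 and 8122 with Cre, and 4507 to 6324 in sham livers.

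Endothelial markers were higher in 10 of 27 and lower in 1 (median 0.36). The median was 0.72 and 0.14 without Cre-negative replicates 1 and 2 and 0.75 and 0.17 without the Cre-positive ones. Kdr, the main receptor for vascular endothelial growth factor, was at 209 and 123 against 392 and 342 (1.18 ± 0.32), with sham livers at 445 to 612, so both genotypes were under sham and the Cre-positive livers nearer to it. Fcgr2b, an Fc receptor of sinusoidal endothelium, was at 175 and 115 against 287 and 274. The scavenger receptors Stab1 and Stab2 overlapped at 1111 and 396 against 748 and 942 and at 1331 and 588 against 825 and 990. Rspo3, the endothelial Wnt enhancer of the pericentral zone, was lower at 41.5 and 22.2 against 14.1 and 6.55. Summed, the list was at 6354 and 3359 against 5533 and 6921, which overlap.

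Markers of bile duct cells and progenitors were lower: 1 of 14 was higher and 9 lower (median -1.47). Tff3, a trefoil peptide of mucosa, was at 129 and 138 against 15.6 and 29.2 (-2.59 ± 0.40, limma adjusted p = 0.0988), and Sox9, the transcription factor of the duct lineage, at 56.3 and 37.1 against 9.66 and 9.53 (-2.14 ± 0.48). Cftr, the chloride channel of duct epithelium, was at 14.1 and 5.95 against 0.0999 and a listed 0. The median of this list in sham livers was -0.62. Without Cre-positive replicate 1 it was -0.91 and without replicate 2 -1.78. Lymphocyte markers had 0 of 17 higher and 5 lower (median -0.63, and -1.12 to -0.35 when a hepatectomy library was left out), neutrophil markers 0 of 11 and 1 (0.21), and erythroid genes 0 of 12 and 2 (-0.30). The lymphocyte share of 29.4% lower is near the 26.3% of all genes, and the median was 0.17 after quantile normalization. Of these 17 markers only 3 had a mean of at least 10, and 5 were listed at 0 in a hepatectomy library.

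Interferon-stimulated genes were higher in the Cre-positive regenerating livers: 15 of 30 members were higher in both and 0 lower, 11 of them at an unadjusted p under 0.05 (median 1.13, against 0.05 in sham livers). Interferons act through JAK kinases and STAT transcription factors, type I interferons mainly through the interferon-stimulated response element and interferon-gamma mainly through gamma-activated sites. Tap1, the peptide transporter of the antigen presentation pathway, was at 136 and 172 against 874 and 670 (2.31 ± 0.39, adjusted p = 0.0988), and Psmb9 and Psmb8, immunoproteasome subunits, at 182 and 184 against 1008 and 475 (1.91 ± 0.39) and at 380 and 332 against 1596 and 811 (1.68 ± 0.35). Bst2, tetherin, was at 1555 and 1859 against 5414 and 3699 (1.40 ± 0.30), and Isg15, a ubiquitin-like modifier, at 75.0 and 53.1 against 616 and 117 (2.07 ± 0.75).

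The size of the interferon difference rested on Cre-positive replicate 1. The list median was 0.34 without it and 2.15 without Cre-positive replicate 2, and the summed signal was 6204 and 5233 in Cre-negative against 24405 and 10045 in Cre-positive livers (4366 to 5953 in sham). Several members, picked here after their values were seen, were high in replicate 1 alone. Ifit1 was at 13.4 and 8.61 against 60.0 and 4.31, Ifi44 at 19.2 and 12.5 against 127 and 5.08, and Gbp3 at 56.8 and 52.2 against 762 and 31.9. For these the second Cre-positive value lay below both Cre-negative values.

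The interferon-stimulated response element was searched as a GAAA, any 2 bases and another GAAA, on either strand, in the 250 bases before the start. It was present in 3.04% of 27025 promoters (2.72% of the 10387 of genes tested) and in 10 of the 24 list members with a promoter in the table (41.7%), 3 of them (Isg15, Oas1a and Bst2) among the 12 members higher in both Cre-positive livers. Ifit1 and Gbp3, given above, also hold a match and were not higher in both. The stretches of Isg15 (chr4:156200820-156200939, - strand), Bst2 (chr8:71537532-71537651, - strand) and Igtp (chr11:58199436-58199555, + strand) are shown as examples (RefSeq, GRCm38.p6). All 3 genes shown were higher in both Cre-positive livers, so the stretches do not relate the element to the response. Capitals mark the matches, which overlap in Isg15 (3 matches) and Bst2 (2 matches).
Isg15: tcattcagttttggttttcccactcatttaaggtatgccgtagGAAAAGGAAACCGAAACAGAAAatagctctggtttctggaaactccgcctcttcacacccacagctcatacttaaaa
Bst2: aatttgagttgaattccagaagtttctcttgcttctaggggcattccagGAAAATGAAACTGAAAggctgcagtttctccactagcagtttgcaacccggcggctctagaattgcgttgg
Igtp: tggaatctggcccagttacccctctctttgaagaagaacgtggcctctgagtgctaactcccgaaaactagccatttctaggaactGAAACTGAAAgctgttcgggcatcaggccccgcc
A match describes these letters and says nothing of binding.

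Genes of MHC presentation were higher in 15 of 16 and lower in 0, all 15 at an unadjusted p under 0.05 (median 1.27, against -0.03 in sham livers). H2-D1, a class I heavy chain, was at 3723 and 3536 against 11202 and 7838 (1.37 ± 0.26, limma adjusted p = 0.116), and H2-K1, another, at 7693 and 10793 against 12562 and 17078 (0.68 ± 0.29). Tap2, the partner of Tap1, was at 62.0 and 113 against 372 and 226 (1.78 ± 0.38), and Cd74, the class II invariant chain, at 507 and 528 against 2268 and 1120. B2m, the class I light chain, overlapped at 13137 and 9093 against 20119 and 11429. Ciita, the activator of class II genes and picked after its values were seen, was at 12.8 and 7.88 against 45.9 and 25.5. The list median stayed between 1.11 and 1.5 whichever hepatectomy library was left out. The summed signal was 27835 and 27027 against 53168 and 44171, with sham livers at 36156 to 43476, so that the Cre-negative livers lay under sham and the Cre-positive livers above it. Class II genes are typical of macrophages and dendritic cells, and of the macrophage list above 13 of 20 markers were higher in the same libraries, with a summed signal of 8122 to 8905 with Cre against 3402 to 4329 without, and none of the 20 was listed at 0 in a hepatectomy library. Their part in the antigen presentation and interferon differences was not tested. Cd74 stands in both of these lists, and Tap1 in the interferon list as well as this one. H2-K1, H2-D1 and other class I genes are close paralogs, so reads may have been shared between them.

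**Figure D5:**
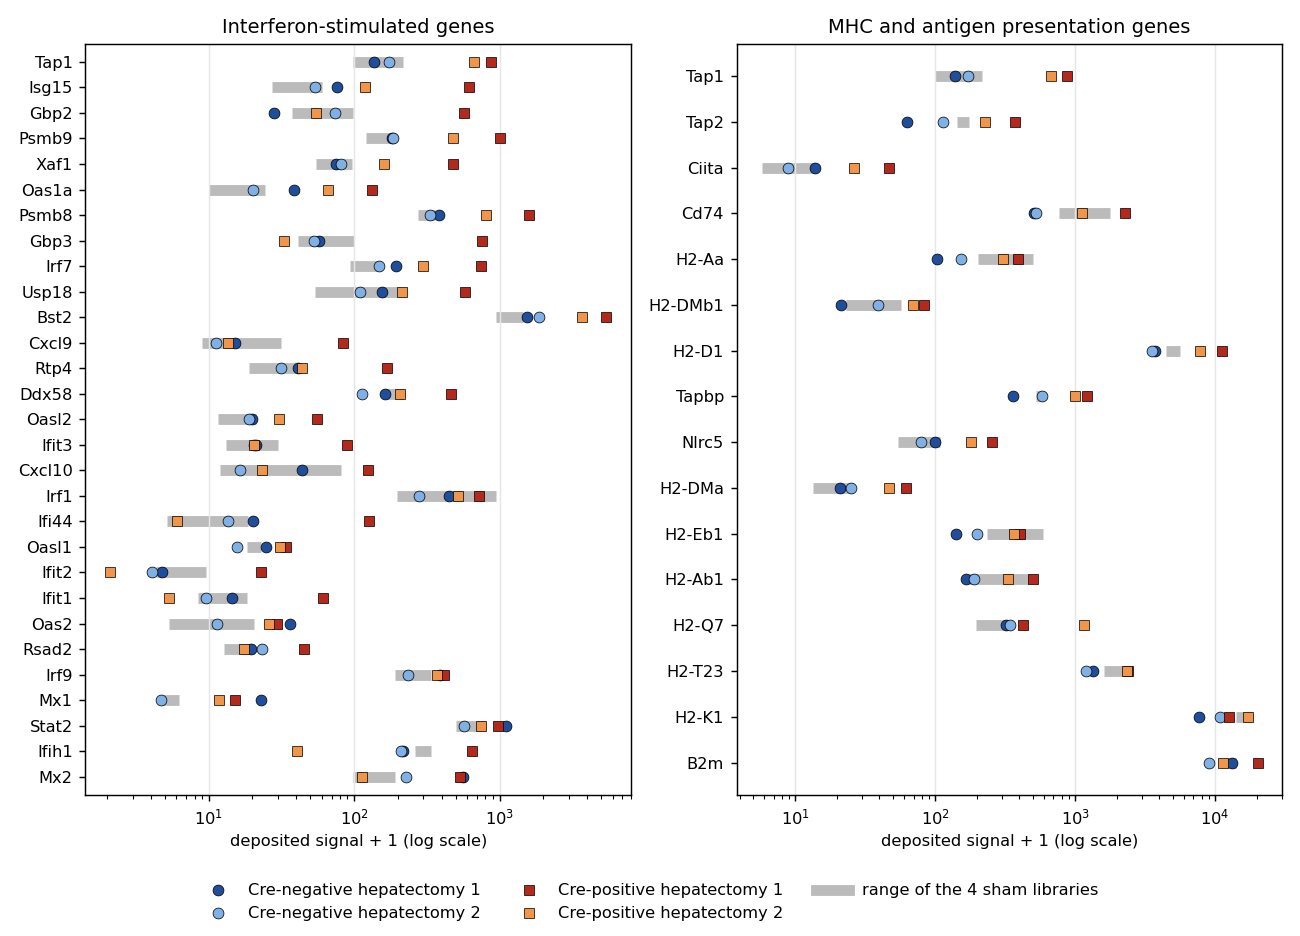
Signal of the interferon-stimulated genes (all but 1 of the 30) and the 16 MHC and antigen presentation genes on a log axis, one point per hepatectomy library. Tap1 runs from 136 to 874, and many interferon members have only Cre-positive replicate 1 to the right, while in the antigen presentation panel both Cre-positive points lie to the right of both Cre-negative points for 15 of 16 genes.

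Cell cycle genes are given by stage. DNA replication genes were higher in 15 of 31 and lower in 2 (median 0.45, 6 of them at an unadjusted p under 0.05 and higher), and all hepatectomy libraries were above sham in summed signal: 3580 and 4662 without Cre against 6967 and 6126 with Cre, with sham libraries at 1881 to 2036. Mcm5, a subunit of the replicative helicase, was at 220 and 288 against 650 and 584 (1.29 ± 0.29, limma adjusted p = 0.13). Mcm2 and Mcm3, of the same complex, were at 106 and 89.9 against 283 and 196 and at 127 and 126 against 363 and 230, and Mcm6 at 129 and 305 against 637 and 497 (1.5 ± 0.50). In each the Cre-positive pair was above the Cre-negative pair. Pcna, the polymerase clamp, overlapped at 341 and 453 against 909 and 397. The list median lay between 0.35 and 0.64 when a hepatectomy library was left out.

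Among genes of G2 and mitosis 0 of 40 were higher and 7 lower (median -0.18). The median lay between -0.91 and 0.35 depending on the hepatectomy library left out: -0.75 without Cre-negative replicate 1, 0.35 without its replicate 2, 0.27 without Cre-positive replicate 1 and -0.91 without its replicate 2. Cdk1, the mitotic kinase, was at 307 and 620 against 251 and 1023, and Ube2c, a ubiquitin ligase factor of mitotic exit, at 227 and 739 against 168 and 1167. Replicate 2 was high and replicate 1 low in each genotype. Mki67, a marker of dividing cells, was lower in both Cre-positive livers at 157 and 221 against 122 and 30.3, as was Bub1 of the spindle checkpoint at 63.1 and 115 against 51.1 and 25.9. Bub1 has a GC content of 41.0%, in a class where Cre-positive replicate 2 was low. E2F factors control many replication genes, and their motif, TTTGGCGC or TTTCGCGC on either strand, was present in 0.673% of 27025 promoters (1.23% of the 10387 of genes tested) and in 5 of 26 replication genes (19.2%), 3 of them among the 14 higher in both Cre-positive livers. The stretch of Mcm6 (RefSeq, GRCm38.p6, chr1:128359706-128359825, - strand) is shown with its 3 matches in capitals.
Mcm6: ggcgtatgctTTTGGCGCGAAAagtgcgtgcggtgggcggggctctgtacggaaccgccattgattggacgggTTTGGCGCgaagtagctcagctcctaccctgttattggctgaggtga

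Of the genes that govern G1 and growth arrest (cyclins, CDK inhibitors and GADD45 and BTG proteins), 3 of 25 were higher and 9 lower (median -0.15, and -0.32 without Cre-negative replicate 1). Gadd45g, a stress sensor that restrains the cell cycle, was at 2138 and 1796 against 619 and 380 (-2.01 ± 0.30), and its relative Gadd45a at 498 and 136 against 13.1 and 13.4 (-4.20 ± 0.86), with sham livers at 60.6 to 477. Btg2, an antiproliferative protein, was at 590 and 361 against 117 and 80.3. All 3 were lower in both Cre-positive livers. Cdkn1a, the p21 inhibitor, overlapped at 224 and 493 against 321 and 646. Ccnd1, cyclin D1, picked after its values were seen, was at 159 and 77.3 against 674 and 250 (1.88 ± 0.53), higher in both.

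Immediate early genes, which respond within minutes to growth factors and stress, were lower in 12 of 21 and higher in 0 (median -1.55). Without Cre-negative replicate 1 the median was -0.73 and members at an unadjusted p under 0.05 fell from 9 to 1, without its replicate 2 it was -2.34, and without Cre-positive replicate 1 it was -0.87. Egr1 was at 1096 and 273 against 49.9 and 68.4 (-3.21 ± 0.84), with sham livers at 971 and 230 (Cre-negative) and 176 and 88.3 (Cre-positive). Maff was at 173 and 66.6 against 18.4 and 17.6, Klf6 at 162 and 90.0 against 44.6 and 13.4, and Zfp36, which destabilises inflammatory messages, at 1457 and 690 against 296 and 258. Cre-negative replicate 1 was the highest of the 4 in each. Klf6 has a GC content of 42.4%, in a class where Cre-positive replicate 2 was low. In sham livers 10 of the list were lower and 0 higher (median -0.81), where 19.4% of all genes were lower and 12.1% higher, and 1 Cre-negative sham library was also the highest of its group for Egr1. Genes induced by ERK signalling that feed back on it were lower in 8 of 14 and higher in 0 (median -0.69): Ier3 at 113 and 38.4 against 6.15 and 12.1, Dusp5, an ERK phosphatase, at 75.0 and 11 against 3.16 and 6.61, and Spry4, an inhibitor of receptor tyrosine kinase signalling, at 20.2 and 14.3 against 5.18 and 8.21.

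Mitogens of hepatocytes and their receptors showed no common shift (2 of 20 higher, 5 lower, median -0.20). Egfr, the receptor for epidermal growth factor, was at 3438 and 4212 against 8460 and 6384 (0.95 ± 0.27). Its ligand Tgfa was at 16.1 and 40.4 against 62.9 and 75.1 (1.39 ± 0.43). Both were higher in both Cre-positive livers, with sham livers at 6963 to 9464 for Egfr and 56.0 to 69.8 for Tgfa. Hgf, the stellate-derived mitogen, overlapped at 63.1 and 55.3 against 190 and 16.0, as did its receptor Met at 311 and 542 against 655 and 180. Fgf2 was at 2.26 and 3.62 against 0.599 and a value near 0.

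In the family of Igfbp1 1 of 10 was higher and 3 lower, Igfbp1 among them (median -0.43, and 0.04 without Cre-positive replicate 1). Igfbp3, the main carrier of circulating insulin-like growth factors, was at 98.9 and 107 against 56.1 and 28.5, and Igfbp4 at 2239 and 7039 against 7439 and 9299. Among PPAR-alpha targets and genes of fatty acid oxidation 6 of 31 were higher and 12 lower (median -0.19, and -0.42 without Cre-negative replicate 1 and -0.06 without its replicate 2). The lower members included Pdk4 and Cyp4a14, a fatty acid hydroxylase and textbook PPAR-alpha target, which was at 731 and 1478 without Cre against 71.6 and 112 with Cre, with sham livers at 11.1 to 100 (12 times lower, -3.52 ± 0.67), uncertain in part since Cyp4a genes are close paralogs. The Cre-negative livers were thus well above sham and the Cre-positive livers near it. Acot2, a mitochondrial thioesterase, was at 130 and 61.2 against 18.4 and 18.2. In carbohydrate metabolism 10 of 24 were higher and 3 lower (median 0.34). Pklr, liver pyruvate kinase, was at 226 and 325 against 545 and 685, higher in both Cre-positive livers, and Ppargc1a, the coactivator of fasting metabolism, at 212 and 94.0 against 36.4 and 11.4 (-2.73 ± 0.64), lower in both. Pck1, of gluconeogenesis, overlapped at 9207 and 17688 against 28964 and 13169.

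Genes of proteins that hepatocytes secrete had higher values: acute phase genes were higher in 13 of 24 and lower in 2 (median 0.81), and complement and coagulation genes in 14 of 27 and 2 (median 0.60, and 0.37 to 1.09 when a hepatectomy library was left out). Both lists hold abundant genes, and of all genes at a sham level of 1000 or more 29.9% were higher. Itih4 was at 18896 and 36940 against 68450 and 73088, Fga, a fibrinogen chain, at 15939 and 31736 against 60196 and 48429, and Hpx, the haem scavenger, at 101041 and 130022 against 341076 and 1452240. Cre-positive replicate 2 stood out for Hpx. Ahsg, fetuin-A, was at 46945 and 88568 against 204710 and 192773 (1.62 ± 0.36). C3, the central complement protein, was at 76917 and 139950 against 260406 and 225866. The sham range was 54195 to 86322 for Itih4, 39570 to 59328 for Fga and 97382 to 177553 for Hpx. For Ahsg it was 80495 to 99175 and for C3 176163 to 222854. Genes of chaperones in the endoplasmic reticulum, which fold secreted proteins, were higher in 12 of 24 and lower in 3 (median 0.45, and 0.28 and 0.84 without Cre-positive replicates 1 and 2): Hyou1 was at 906 and 920 against 2300 and 3222 (1.58 ± 0.29, limma adjusted p = 0.108), and Calr, calreticulin, at 2475 and 3259 against 6012 and 7644. In sham livers 7 of these 24 were also higher and 2 lower (median 0.26), where 12.1% of all genes were higher and 19.4% lower.

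Hepcidin, the hormone that limits iron export into plasma, differed widely. Hamp was at 4396 and 327 without Cre against 31004 and 7376 with Cre, with sham livers at 6497 to 16651 (8.13 times higher, 3.65 ± 1.17, limma adjusted p = 0.196). The Cre-negative pair was below all sham livers, 1 Cre-positive library was above them and the other within their range, with a large spread in each pair. Its paralog Hamp2 was at 267 and 36.7 against 589 and 374, and reads may have been shared between the 2 genes. Hamp is driven by BMP and SMAD signalling and by IL-6 through STAT3. Smad7, an inhibitor of that pathway, was at 15.1 and 11.3 against 25.3 and 27.2, and Socs3, a STAT3 target picked after its values were seen, was lower at 775 and 325 against 144 and 71.3. The STAT motif TTCNNNGAA, a palindrome, stood in 7.18% of 27025 promoters (6.27% of the 10387 of genes tested) and in Hamp and Hamp2 among 7 iron genes with a promoter in the table. The Hamp stretch (RefSeq, GRCm38.p6, chr7:30944062-30944181, - strand) carries 1 match in capitals.
Hamp: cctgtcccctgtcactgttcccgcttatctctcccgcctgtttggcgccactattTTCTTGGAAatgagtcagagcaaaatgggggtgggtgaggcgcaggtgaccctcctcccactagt
The iron list was higher in 6 of 14 and lower in 1 (median 0.42).

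All 8 libraries carried Y-linked genes and low Xist, but the Y-linked genes were lowest in Cre-positive hepatectomy replicate 2. There Eif2s3y was at 54.1, against 336 to 467 in the other hepatectomy libraries. Uty was at 19.7 against 104 to 173, and Kdm5d at 38.5 against 73.9 to 97.8. Male-biased liver genes were higher in 6 of 16, lower in 0 and overlapping in 10 (median 0.73, and 0.28 without Cre-positive replicate 1), and female-biased genes lower in 8 of 14 and higher in 1 (median -1.13). Cyp4a12a, a male-biased fatty acid hydroxylase, was at 901 and 1140 against 2171 and 2824, with sham livers at 4900 to 7320, so all hepatectomy livers were under sham, with reads possibly shared with its copy Cyp4a12b. Cux2, a female-biased transcription factor, was at 30.6 and 19.7 against 0.773 and 7.57. Of the 14 female-biased genes 6 had a mean of at least 10 over the 8 libraries. Among all genes, 39.7% were lower under a mean sham signal of 1. From 1 to under 10 that share was 39.6%, and from 10 to under 100 it was 27.1%. Hepatocyte transcription factors were higher in 8 of 20 and lower in 3 (median 0.27, with 6 higher and 2 lower in sham livers). Rxra was at 826 and 1227 against 2075 and 2379 and Hnf4a at 1305 and 2922 against 4096 and 4111, each pair apart. Fetal liver genes were lower in 8 of 15 and higher in 1 (median -1.10). Among them Afp, alpha-fetoprotein, overlapped at 121 and 79.3 against 97.7 and 29.6.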

How the data were processed

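TruSeq libraries were made from 2.5 ug of Trizol-extracted, DNase-treated RNA (per the labels' protocols) and run on a HiSeq2000. The authors deposited a normalized signal for 34465 genes and 96792 isoforms. The submitters' processing notes name TopHat, Cufflinks and the builds mm9 and NCBIM37. Versions and normalization are not given in the sources used here. In the hepatectomy libraries 14.8% to 34.5% of isoform values per level class recurred exactly in another library, as did 6.2% to 15.1% of gene values at 10000 or more. Of gene values from 1000 to under 10000, 1.46% to 2.91% recurred. Values printed here, such as those of Ttr and Mir686, are among the recurring ones, and the cause was not tested. FPKM had been assumed, and the same test was kept for the signal. Whole reads were not recovered, so depth is unknown.

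Samples were grouped by title. limma 3.58.1 in R 4.3.3 was run on log2(signal + 1) for the 16443 genes with a mean of at least 1 over 8 libraries, with 4 group means, an intensity trend, two-sided tests and Benjamini-Hochberg adjustment at 0.05 (residual degrees of freedom 4, prior 3.25). It was tested on simulated data. An exact permutation test of 2 against 2 cannot go below 0.333. Named were Pdgfrb, Gfap, up to 10 genes per direction past the threshold without overlap, filled by smallest unadjusted p (all 4 values above 0, mean of at least 10), and per list up to 3 members without overlap and 2 others of highest mean. Further members were named outside this rule, among them Des, Lrat, Pdgfb, Pdgfc, Col1a1, Acta2, Isg15, Hgf and Met. The members and 48 lists were chosen with earlier results of these data known. Alternatives changed the pseudocount (0.1, 10), filter (none, 10), scaling, trend, GC centring and libraries fitted. GC content was matched for 96.6% of the genes tested. Some genes of the lists are counted but not reported here by name.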

Additional observations from a re-analysis of the deposited data

Results flagged for a closer look

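For 2 genes the genotype difference itself differed between regenerating and sham livers at a limma adjusted p under 0.05 (2 of 16443, 0.0122%, both lower after hepatectomy, and 0 higher). SCARNA4 was at 47.4 and 52.2 in Cre-negative libraries and listed at 0 in both Cre-positive hepatectomy libraries, against 18.6 and 19 and then 57.2 and 34.3 in sham. Its fitted difference of differences was -6.86 on the log2(signal + 1) scale (limma adjusted p = 0.0285). That size is set by the pseudocount, since it rests on the listed 0s, and measures no fold: the fitted hepatectomy difference alone ran from -8.96 to -2.58 over the alternatives. AL845466.1 had a fitted value of -10.14, likewise set by the pseudocount, which came from the sham livers: it was at 2050 and 622 in the Cre-positive sham libraries and under 1 in the other 6. At an unadjusted p under 0.05 the genotype difference was higher after hepatectomy in 458 genes (2.79%) and lower in 872 (5.3%).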

How the results depend on the processing

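The 3 calls between regenerating livers became 22 with no filter on low values, 7 without the trend and 0 with only the hepatectomy libraries fitted. Leaving out 1 library gave 0 to 2142 calls: 0 without either Cre-negative sham library, 1 without Cre-negative hepatectomy replicate 1, 96 without its replicate 2, 2142 without Cre-positive hepatectomy replicate 1 and 63 without its replicate 2, where the lone sample is assumed to vary like the other groups. The 1 sham call became 0 with no filter and 0 with centring within GC classes, and 0 to 19 when a library was left out. The 2 calls of the difference became 1 at a pseudocount of 0.1, 1 with no filter, 0 at a pseudocount of 10, 0 with a filter at a mean of 10 and 0 with GC centring, and 0 to 732 when a library was left out. The cause was not tested. Of 369 values of named genes under alternatives, 322 kept their direction and side of the threshold, 30 gained the call, 15 lost it and 2 changed direction: Pdgfrb was 0.17 without Cre-negative hepatectomy replicate 1 and 0.10 without Cre-positive hepatectomy replicate 1, in a range that began at -0.62. Of 297 list medians, 61 moved by more than the replicate spread, and 34 of 286 changed side relative to all genes. No paired analysis was possible because the labels give no replicate number shared between groups. Precision is limited by 2 libraries a group, with depth unknown, 836 tested genes listed at 0 in a hepatectomy library and 24 genes at 0 in one and at 1000 or more in another.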

Other observations

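Other gene groups of the regenerating livers gave the following values. Genes of the mitochondrial genome had a median log2 fold change of -1.25 (0 of 13 higher and 1 lower), with library medians against sham of 0.97 and -0.23 without Cre against -0.09 and -1.61 with Cre. Their median GC content was 37.1%, in the class where Cre-positive replicate 2 was low. Cytosolic ribosomal protein genes were higher in 2 of 61 and lower in 23 (median -0.21, with 3 higher and 20 lower in sham livers), while respiratory chain genes encoded in the nucleus were higher in 5 of 38 and lower in 14 (-0.01). Proteasome genes were higher in 11 of 27 and lower in 0 (0.24), and in sham livers 9 of the 27 were higher. Drug-metabolizing P450 genes were higher in 13 of 29 and lower in 6 (0.26), with Cyp3a11 at 10719 and 9798 against 87107 and 13427. Glul, glutamine synthetase of the pericentral zone, was at 2098 and 2306 against 3865 and 4418, and Cyp2f2 of the periportal zone at 2307 and 4456 against 7307 and 9790, and Agxt2l1 of the same zone was lower at 1200 and 710 against 411 and 193. As lists, pericentral genes were higher in 7 of 20, lower in 1 and overlapping in 12 (0.23), and periportal genes higher in 4 of 19, lower in 2 and overlapping in 13 (0.35).

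In lipogenesis and cholesterol synthesis 5 of 30 were higher and 3 lower (0.10), with Acaca, acetyl-CoA carboxylase, at 634 and 451 against 889 and 1098. Sult1e1, the oestrogen sulfotransferase, was lower at 258 and 311 against 42.5 and 25.3 (-3.07 ± 0.44, limma adjusted p = 0.0988) in a list of glucocorticoid-responsive and metallothionein genes with 4 of 15 higher and 3 lower. Conjugation enzymes (4 of 28 higher, 8 lower), bile acid genes (3 of 24 and 2) and genes of the urea cycle and amino acid breakdown (2 of 25 and 5) had medians of -0.05, 0.01 and -0.08. Markers of mesothelium and other tissues were higher in 1 of 8 and lower in 3 (-0.93), with the mesothelial gene Msln at 122 and 235 against 34.9 and 60.9.

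Among BCL2 family genes 3 of 17 were higher and 4 lower (median -0.34), with Bak1, a pore-forming effector of apoptosis, at 54.1 and 89.5 against 157 and 252 and Bid, its activator, at 23.9 and 23.2 against 51.2 and 54.1, and Pmaip1, a BH3-only member, lower at 2.01 and 2.59 against 1.03 and 0.474. YAP target genes were higher in 4 of 12 and lower in 2 (median -0.44), with the receptor kinase Axl at 148 and 130 against 325 and 296 and Gadd45b at 342 and 116 against 36.1 and 29.8. Rgs16 and Nfil3, which cycle in liver, were lower at 108 and 102 against 29.3 and 15.3 and at 276 and 194 against 84.2 and 105, and clock genes as a list were higher in 0 of 19 and lower in 4 (median -0.44). Chemokines were higher in 1 of 18 and lower in 4 (-0.14), with the monocyte attractants Ccl2 at 65.3 and 37.7 against 10.7 and 11.6 and Ccl7 at 23.5 and 11.6 against 2.29 and 5.11. Angiogenic ligands and receptors were higher in 3 of 18 and lower in 6 (-0.20). The Y-linked gene Ddx3y, chosen from its values, was at 8.08 in Cre-positive replicate 2 and at 410.5 to 530.5 in the other 3 hepatectomy libraries.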
